A study of Mus musculus with 18 samples.

Results

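The genes described here are those that build, anchor and remodel the extracellular matrix of the kidney: collagens, laminins, nidogens, fibronectin, nephronectin, perlecan and agrin, the contractile proteins Acta2 and Tagln, the TGF-beta ligands, the matrix metalloproteinases (MMPs) and their tissue inhibitors (TIMPs). They are the genes whose symbols match a list of family names, and 91 of the 19518 genes in the deposited table did. Messenger RNA was measured in frozen whole kidney of 10 week old ICR mice, an outbred strain, in 18 libraries in 6 groups of 3. The groups were untreated mice (control), mice given AOS at 10 mg/kg (AOS, an abbreviation the labels do not spell out), mice on a high fat diet (HFD), mice given both (HFD+AOS, AOS again at 10 mg/kg), HFD mice with a faecal microbiota transplant (FMT) that the labels tie to AOS at 10 mg/kg (HFD+AOS-FMT), and HFD animals whose transplant is called control (HFD+control-FMT). The series asks what such transplants do in kidneys damaged by a high fat diet. Nothing in the labels ties each library to its own mouse, so the p-values below rest on the spread between libraries, and that spread may be technical.

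The kidney holds matrix of 2 kinds. Basement membranes are thin sheets under epithelium and endothelium, built of type IV collagen and laminin networks that nidogens, perlecan and agrin join. In the glomerulus, the kidney's filter, they carry a special type IV collagen of the alpha3, alpha4 and alpha5 chains and laminins with the alpha5 and beta2 chains. Interstitial matrix lies between tubules and vessels and consists of fibrillar collagens such as types I and III, with type VI collagen and fibronectin. Its build-up, driven by TGF-beta and made by fibroblasts and by Acta2-positive myofibroblasts, is what pathologists call fibrosis. MMPs cut matrix proteins and TIMPs block them.

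Of the 91 genes, 52 had a normalized signal of at least 1 in at least 3 libraries and were tested. The 52 comprised 12 interstitial genes (5 fibrillar collagens and 7 others), 22 basement membrane genes (7 collagens, 10 laminin chains and 5 linkers), 2 contractile genes, 1 TGF-beta ligand, 2 TIMPs, 8 MMPs and 5 other collagens. The test was limma on log2(signal + 1), two-sided, with all 18 libraries in 1 fit and p-values adjusted over all 12030 genes that passed the same filter. A gene is called where the adjusted p is under 0.05, and log2 differences below are on that scale, which understates changes of low signals.

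In these kidneys 1 matrix gene was called between single groups: Npnt, which encodes nephronectin, a basement membrane ligand of integrin alpha8 beta1 needed for kidney development. Npnt fell in HFD+AOS and in HFD+AOS-FMT against HFD. The fibrillar collagen gene Col27a1, whose product is best known from cartilage, was at 1.77 and 2.09 times the HFD mean in HFD+AOS and HFD+AOS-FMT, and was called over the 6 groups together but not between groups. No other collagen, laminin, TIMP, MMP or TGF-beta gene was called in the 7 comparisons between groups, in the comparison of the diet effect with and without AOS, or in the F test over the 6 groups.

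The promoter stretches of both genes are shown because the results turn on these genes. Npnt lies on GRCm38 chr3:132881745-132950291, minus strand, and Col27a1 on chr4:63214004-63334991, plus strand, in GENCODE M21. The 250 bases before the RefSeq start (GRCm38.p6) are given 5′ to 3′ on the gene's strand, at chr3:132950292-132950541 for Npnt and chr4:63215162-63215411 for Col27a1. RefSeq lists 2 starts of Npnt, of which the one farther upstream is shown, and the RefSeq start of Col27a1 lies inside the GENCODE span. Capitals mark the letters GGGCGG (a GC box) on either strand.
Npnt: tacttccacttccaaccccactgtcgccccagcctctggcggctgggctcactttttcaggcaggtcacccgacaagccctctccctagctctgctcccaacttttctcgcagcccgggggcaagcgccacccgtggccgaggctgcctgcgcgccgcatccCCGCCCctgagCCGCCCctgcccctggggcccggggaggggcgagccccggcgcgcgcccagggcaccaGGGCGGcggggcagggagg
Col27a1: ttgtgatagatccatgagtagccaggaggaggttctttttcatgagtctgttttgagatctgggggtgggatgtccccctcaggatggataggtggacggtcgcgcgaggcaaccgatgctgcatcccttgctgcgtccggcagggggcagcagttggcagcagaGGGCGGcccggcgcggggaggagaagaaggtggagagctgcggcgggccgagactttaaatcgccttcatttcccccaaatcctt

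The Npnt stretch held GGGCGG at 3 places and the Col27a1 stretch at 1, whose first base lies 85 bases before the start. On either strand these letters occurred in 32.7% of 32851 windows of the same length and in 39 of 76 windows of the matrix genes (51.3%). The other motifs searched on both strands were CACGTG (6.02% of all windows), TTATGTAA or TTACGTAA (0.931%), TAGGTCA (2.23%), the CArG box (1.47%) and TATAAA (12.4%), and neither stretch held any of them. Promoter entries were found for 67 of the 91 genes. A match is a description of letters and not a binding site.

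One library stood apart before any comparison. Control replicate 3 had a summed signal of 922 over 8 adrenal genes against 0.81 to 2.31 in the other libraries, and 2986 over 8 tubule injury genes against 343 to 777. It had the highest signal of the 18 libraries for 31 of the 52 tested matrix genes (59.6%), and for 49.9% of all tested genes. Its summed signal of 6 fibroblast markers was 138 against 37.6 to 80.4, and of 9 podocyte markers 118 against 34.6 to 78.3. The 7 genes that define kidney, such as Umod and Slc34a1, were present in every library at a summed 3380 to 4431. Transcripts of 8 sperm cell genes also split the libraries, with 55.5 to 62.6 in the 3 control libraries and HFD replicates 1 and 2 and at most 27.0 elsewhere. Results that rest on the control group are given with and without control replicate 3.

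The signal, taken as normalized for gene length, spanned a wide range, as the plot of levels by role shows. Timp3, an inhibitor of MMPs that binds to the matrix, averaged 598 over the 18 libraries, 15.8 times the next gene, Col4a1. It made up 35.6% to 65.3% of the summed signal of the 91 genes, and the lowest share and the lowest signal (324) were both in control replicate 3. Over the libraries 12 genes averaged 10 or more, 35 averaged from 1 to under 10 and 44 averaged under 1. The median of the gene means was 1.21, against 2.69 over all genes in the table.

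Among basement membrane genes the type IV collagen chains Col4a1, Col4a3 and Col4a4 and the linker Npnt had the highest signals. Col4a1 had a median of 38.2 (29.3 to 54.7), Col4a3 of 36.5 (25.8 to 42.5), Col4a4 of 35.6 (26.2 to 44.2) and Col4a2 of 25.8 (20.2 to 42.1). Col4a1 exceeded Col4a3 in 11 of 18 libraries and Col4a3 exceeded Col4a4 in 9 of 18, so the order of these 3 does not hold from library to library. Col4a4 exceeded Col4a2 in 17 of 18. Lamb1, the laminin beta1 chain, led the laminins in 18 of 18 libraries with a median of 18.8, ahead of Lama5 at 6.86. Among the linkers Npnt had a median of 35.4 and agrin (Agrn), a heparan sulphate proteoglycan, 16.6.

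Interstitial genes were lower. Col27a1 led the fibrillar collagens with a median of 11.4 and exceeded the type I chain Col1a2 (7.49) in 17 of 18 libraries. Col1a2 exceeded Col3a1 (median 7.03) in 12 of 18. Col14a1, a collagen that associates with fibrils, had a median of 7.12 and the type VI chain Col6a6 of 6.29. The leading MMPs were Mmp24 (3.42) and the membrane-bound Mmp14 (2.09), and the leading other collagens were Col19a1 (1.61) and Col26a1 (1.59). The summed signal of all basement membrane genes was 3.41 to 5.33 times that of all interstitial genes over the 18 libraries, and the 6 groups overlapped.

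**Figure D1:**
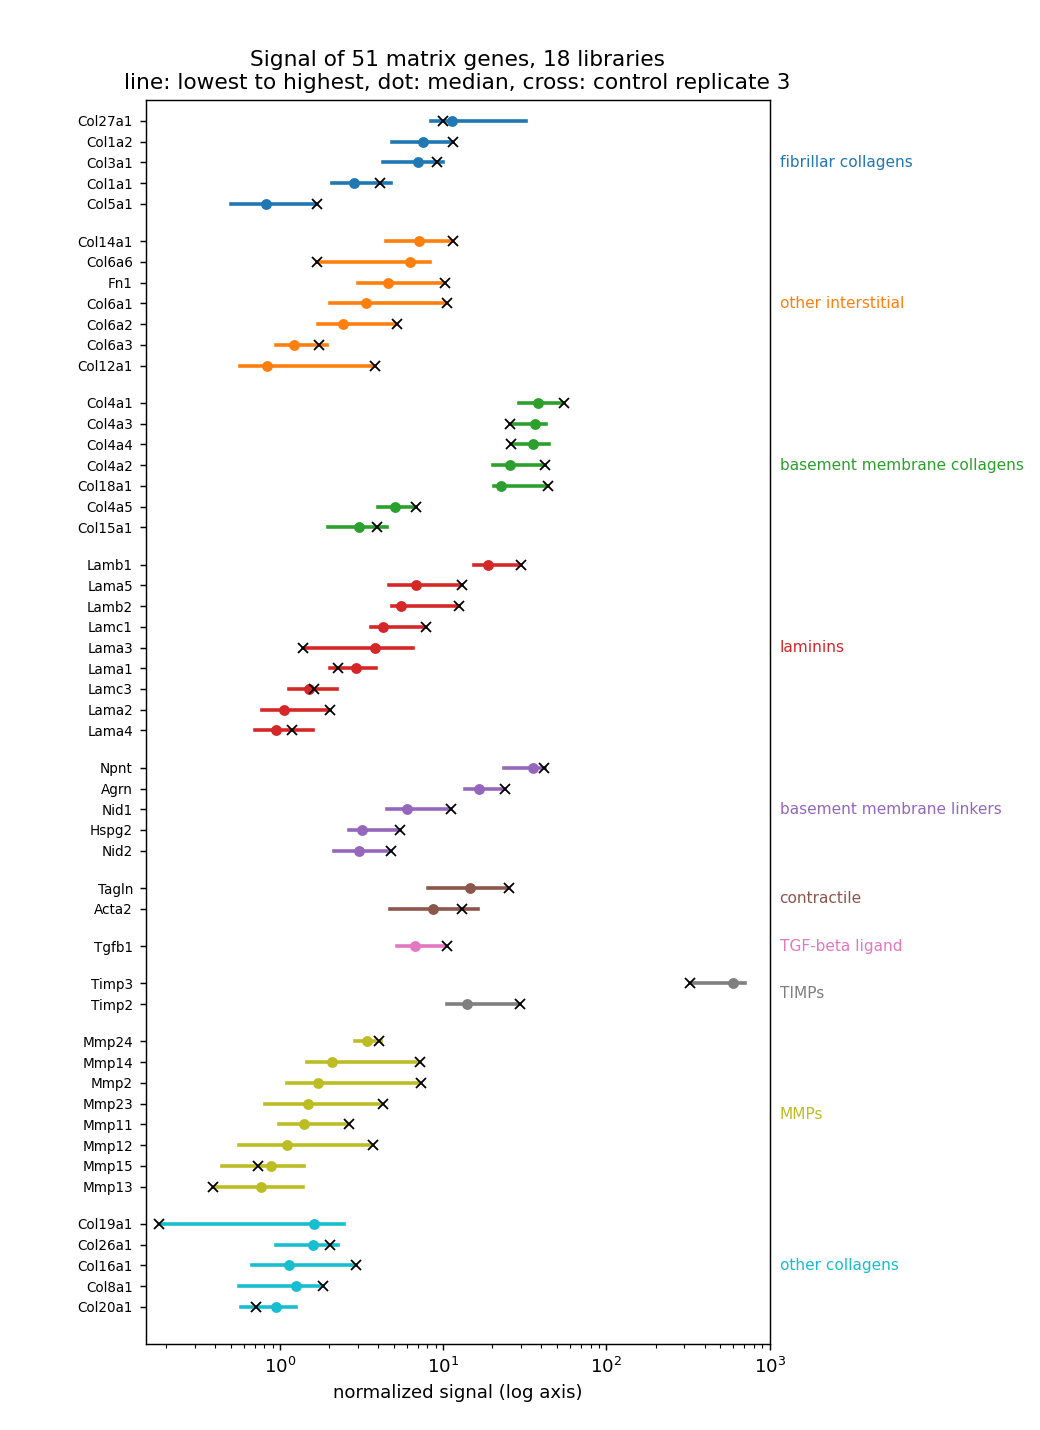
Normalized signal on a log axis of 51 of the 52 tested matrix genes, ordered by role. Lines span the lowest to the highest of 18 libraries, dots are medians and crosses mark control replicate 3. Timp3 lies far to the right at a mean of 598, and crosses sit at the upper end of the line for most genes.

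The 39 genes that did not pass the filter had mean signals from 0 to 0.756. They were the basement membrane chains Col4a6 and Lamb3, the interstitial genes Col5a3, Col5a2, Col24a1, Col11a2, Col11a1, Col2a1 and Col6a5, the ligands Tgfb2 and Tgfb3, the inhibitors Timp1 and Timp4, 13 MMPs and 13 other collagens. Mmp10 and Mmp20 were listed at 0 in every library. At least 1 in any library was reached by 5 of the 39, and 22 of them peaked in control replicate 3, among them Timp1 (2.47 there).

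Npnt had the clearest difference among the matrix genes. Its signal was 37.6, 39.1 and 40.7 in the HFD libraries and 23.7, 24.0 and 24.2 in HFD+AOS. All HFD+AOS libraries lay below every control, AOS, HFD and HFD+control-FMT library, and their SD of 0.251 was the smallest of the 6 groups. The fall of HFD+AOS against HFD was -0.68 (SE 0.104, limma adjusted p = 0.0127), to 61.4% of the HFD mean. Among all tested genes 0.823% were called in this comparison, and 1 of the 52 matrix genes was.

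In HFD+AOS-FMT the Npnt signal was 25.4, 30.2 and 23.5. The highest of these lay just under the lowest AOS and HFD+control-FMT libraries. The fall against HFD was -0.56 (SE 0.104, limma adjusted p = 0.0489), from 39.1 ± 1.55 to 26.4 ± 3.41 (SD, n = 3). Npnt was the 1 of 52 matrix genes called, and 0.175% of all tested genes were. This call stood close to the threshold, and leaving out any library of the compared groups gave adjusted p-values from 0.0609 to 0.183. The HFD libraries are shared by both comparisons, so these are not independent.

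The control and AOS groups overlapped with HFD in their Npnt signal, and HFD+control-FMT did not. Control libraries had 35.5, 42.0 and 41.2, AOS libraries 35.2, 30.4 and 39.2, and HFD+control-FMT libraries 37.0, 37.2 and 30.7. All HFD+control-FMT libraries lay below the lowest HFD library (37.6), with replicate 3 farthest from it. The difference of -0.16 (SE 0.104) was not called (limma adjusted p = 1.00). Between the transplants, HFD+AOS-FMT against HFD+control-FMT was -0.40 (SE 0.104), which the test did not call (limma adjusted p = 0.495). HFD+AOS against AOS was -0.52 (limma adjusted p = 0.122), and the diet effect with AOS minus that without AOS was -0.50 (SE 0.148, limma adjusted p = 0.344). The F test over the 6 groups called Npnt (limma adjusted p = 0.0138), and it did so without each of the 18 libraries in turn (0.00503 to 0.0348). It did not with a term for the sperm cell transcripts, a fit in which HFD rests on 1 library against HFD+AOS and the transplants. The alpha8 integrin gene Itga8, whose product binds nephronectin, was at 0.62 to 2.45 and was not called in the F test (limma adjusted p = 0.739).

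Col27a1 lay on the opposite side. Its signal was 9.31, 10.5 and 11.4 in HFD, 22.8, 16.3 and 16.2 in HFD+AOS, and 16.9, 16.2 and 32.1 in HFD+AOS-FMT. The groups given AOS or the AOS transplant on the diet did not overlap with HFD, and 1 library, HFD+AOS-FMT replicate 3, was far above the rest. Control libraries had 9.73, 9.37 and 9.92, AOS libraries 8.45, 9.18 and 10.1, and HFD+control-FMT libraries 13.0, 15.3 and 11.3. The control-transplant libraries thus lay between HFD and the AOS arms, with 1 of them below the highest HFD library.

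None of the differences of Col27a1 between groups passed. HFD+AOS-FMT against HFD was 0.93 (SE 0.200, limma adjusted p = 0.0704), from 10.4 ± 1.05 to 21.7 ± 9.0 (SD, n = 3), and 0.625 without replicate 3 of HFD+AOS-FMT. HFD+AOS against HFD was 0.75 (limma adjusted p = 0.0911) and against AOS 0.91 (0.126). Between the transplants the difference was 0.62 (0.545). The F test over the 6 groups called Col27a1 (limma adjusted p = 0.0302), and with each library left out in turn it stayed under the threshold in 8 of 18 fits (0.0209 to 0.0711). The call was also lost with the replicate block (0.0646), and with the sperm cell term, where HFD rests on 1 library against the AOS arms. In the F test 2 of 52 matrix genes were called, and 1.02% of all tested genes. At an unadjusted p under 0.05 the F test held 11 of 52 (21.2%), against 17.7% of all tested genes.

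**Figure D2:**
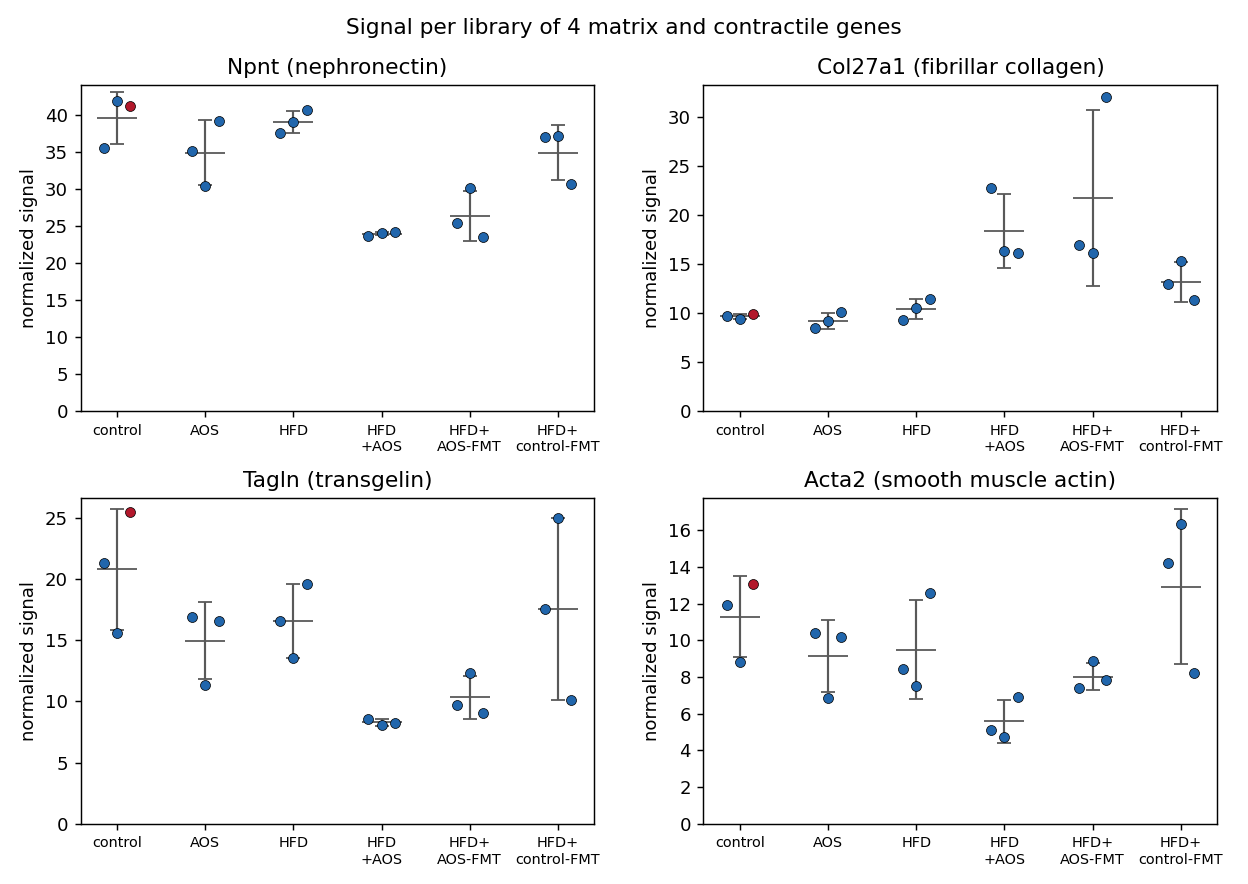
Normalized signal of Npnt, Col27a1, Tagln and Acta2 in each library, by group. Points are libraries (control replicate 3 in red), horizontal bars are means and whiskers 1 SD of 3. Npnt is at 23.7 to 24.2 in HFD+AOS against 37.6 to 40.7 in HFD, and Col27a1 reaches 32.1 in 1 HFD+AOS-FMT library.

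Circadian clock genes were read beside Npnt and Col27a1. The summed signal of 13 clock genes was 295 to 327 in HFD+AOS and 282 to 331 in HFD+AOS-FMT, against 129 to 159 in HFD, and none of the 13 was at 0. Arntl, an activator of the clock, was at 1.30 to 2.41 in the HFD+AOS and HFD+AOS-FMT libraries and 8.64 to 10.9 in HFD. It was called in HFD+AOS against HFD (-1.91, limma adjusted p = 0.0399) and not in HFD+AOS-FMT against HFD (-2.01, 0.0619), where no clock gene was. Control replicate 3, with Arntl at 2.71 and a clock sum of 339, had Npnt at 41.2 and Col27a1 at 9.92, both near the other controls. HFD+control-FMT replicate 3, with Arntl at 3.39, had Npnt at 30.7 and Col27a1 at 11.3, each the lowest of its group. The part of the clock genes in the differences was not tested. HFD replicate 3, the HFD library with few sperm cell transcripts (22.1), had Npnt at 40.7 and Col27a1 at 11.4, the highest of its group. Only HFD held libraries of both kinds, so a term for that split sets HFD+AOS and both transplant groups against HFD replicate 3 alone. With that term Npnt was at -0.74 in HFD+AOS and -0.61 in HFD+AOS-FMT against HFD. The part of the split in the differences was not tested.

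The contractile genes Tagln (transgelin) and Acta2 (smooth muscle actin), both found in vessel walls and myofibroblasts, were next in rank. Tagln was at 16.6, 13.5 and 19.6 in HFD and 8.60, 8.07 and 8.21 in HFD+AOS, without overlap. The difference of -0.90 (SE 0.254) was not called (limma adjusted p = 0.108). Acta2 was at 8.43, 7.49 and 12.6 in HFD and 5.11, 4.74 and 6.90 in HFD+AOS, also without overlap, and its difference of -0.66 (SE 0.236) was not called (limma adjusted p = 0.195).

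HFD+AOS-FMT held intermediate contractile signals, with Tagln at 9.69, 12.3 and 9.02 and Acta2 at 7.39, 8.85 and 7.84. Tagln lay below every HFD library, and Acta2 overlapped with HFD. HFD+control-FMT was the most spread group, with Tagln at 17.6, 25.0 and 10.1 and Acta2 at 14.2, 16.4 and 8.20. Against it, HFD+AOS-FMT was at -0.64 for Tagln (limma adjusted p = 0.654) and -0.58 for Acta2 (0.656). The summed signal of 6 smooth muscle markers was 23.0 to 25.1 in HFD+AOS, 27.0 to 42.0 in HFD+AOS-FMT, 29.6 to 38.1 in HFD and 29.4 to 39.9 in HFD+control-FMT. Most of the sum was Myl9, at 17.5 to 19.6 in HFD+AOS, 20.3 to 32.9 in HFD+AOS-FMT and 23.8 to 31.0 in HFD. Myh11, another of the 6, was not lower, at 1.89 to 2.93, 2.53 to 3.09 and 1.48 to 2.35 in the same order. The remaining markers had lower means in HFD+AOS than in HFD. Des was at 2.42 to 2.88 against 2.55 to 3.46, and Lmod1 at 0.45 to 0.62 against 0.61 to 0.69. Cnn1 was at 0.17 to 0.28 against 0.32 to 0.49, and Actg2 at 0 to 0.12 against 0.12 to 0.23, all low signals. The part of these markers in the Tagln and Acta2 values was not tested. In whole tissue, fewer cells of a type and less RNA per cell cannot be told apart.

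Interstitial genes other than Col27a1 had small negative differences from HFD in all 3 groups set against it, which share the HFD libraries. In HFD+AOS-FMT 11 of the 12 tested interstitial genes had a negative difference, with Col27a1 the exception and a median of -0.185, while 62.4% of all tested genes had a positive one and their median was 0.05. The number was 11 of 12 in HFD+AOS (median -0.163, all genes 0.014), and 7 of 12 without HFD+AOS replicate 3, the library with the lowest signal for 18 of the 52 matrix genes. It was also 11 of 12 in HFD+control-FMT (median -0.156, all genes 0.010). None of these genes was called, so the counts describe signs only.

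Single genes show the size of these differences against the library spread. Col1a1, a type I collagen chain, was at 4.50, 2.95 and 3.14 in HFD and 2.18, 2.52 and 2.37 in HFD+AOS-FMT, a difference of -0.42 (SE 0.196, limma adjusted p = 0.377). The groups did not overlap for Col1a1, but the HFD libraries themselves ran from 2.95 to 4.50. Col3a1 differed by -0.27 (limma adjusted p = 0.662) with overlapping groups. Col14a1 differed by -0.35 in HFD+AOS-FMT (limma adjusted p = 0.522) and by -0.37 in HFD+control-FMT (1.00). Summed over the 18 interstitial genes without Col27a1, the signal was 49.9 ± 7.96 in HFD, 42.6 ± 11.3 in HFD+AOS, 40.3 ± 5.18 in HFD+AOS-FMT and 41.7 ± 5.05 in HFD+control-FMT (SD, n = 3), all overlapping. The fibroblast marker sum was 37.6 to 58.8 in HFD, 40.9 to 59.1 in HFD+AOS, 41.7 to 47.0 in HFD+AOS-FMT and 40.5 to 53.9 in HFD+control-FMT. Most of it in HFD and HFD+AOS-FMT was Dcn (means 37.4 and 31.1), itself a matrix proteoglycan gene. The part of the fibroblast sum in these values was not tested.

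Laminin chains had mostly positive differences in HFD+AOS-FMT against HFD. The sign was positive for 8 of 10 (median 0.207), beside 62.4% of all tested genes (median 0.05), and for 6 of 10 after quantile normalization (median 0.107). It was positive for 6 of 10 in HFD+AOS and 5 of 10 in HFD+control-FMT against HFD, beside 53.1% and 53.7% of all tested genes. Without HFD+AOS replicate 3 the count in HFD+AOS was 8 of 10. None was called. Lama1, a chain of tubular basement membranes, was at 3.85, 3.04 and 3.45 against 2.69, 2.97 and 2.33 in HFD (0.28, SE 0.099, limma adjusted p = 0.237). Lama5, the alpha chain of the glomerular laminin, was at 7.18, 8.66 and 8.08 against 4.63, 6.53 and 5.45 (0.46, SE 0.212, limma adjusted p = 0.364). Agrn, which binds laminin, was at 17.0, 19.4 and 18.3 against 13.7, 13.9 and 15.0 (0.34, SE 0.138, limma adjusted p = 0.299). Summed over all 24 basement membrane genes the signal was 277 to 291 in HFD and 242 to 264 in HFD+AOS, but without Npnt the ranges overlapped (238 to 250 and 218 to 241).

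Control replicate 3 decided whether some of these genes were called, although it is in neither group, because all 18 libraries share 1 estimate of the spread. Without it 5 matrix genes were called in HFD+AOS-FMT against HFD, where 4.86% of all tested genes were. These were Npnt (limma adjusted p = 0.00921) and Col6a6 (0.0294), which were lower, and Lama5 (0.0108), Agrn (0.0234) and Col27a1 (0.0264), which were higher. Col6a6 was at 5.60, 5.16 and 4.63 against 7.12, 6.92 and 7.11, without overlap, and at 1.68 in control replicate 3. In HFD+AOS against HFD, 3 were called without that library, where 6.72% of all tested genes were: Npnt (0.00216), Lama5 (0.0138) and Col27a1 (0.0473). The F test then called 4, Npnt, Col27a1, Lama5 and Col6a6, with 6.33% of all tested genes. The podocyte marker sum, from glomerular cells that make alpha5 laminin, was 46.9 to 78.3 in HFD+AOS-FMT, 51.4 to 62.2 in HFD+AOS and 34.6 to 47.7 in HFD, and its part in the Lama5 and Agrn values was not tested.

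**Figure D3:**
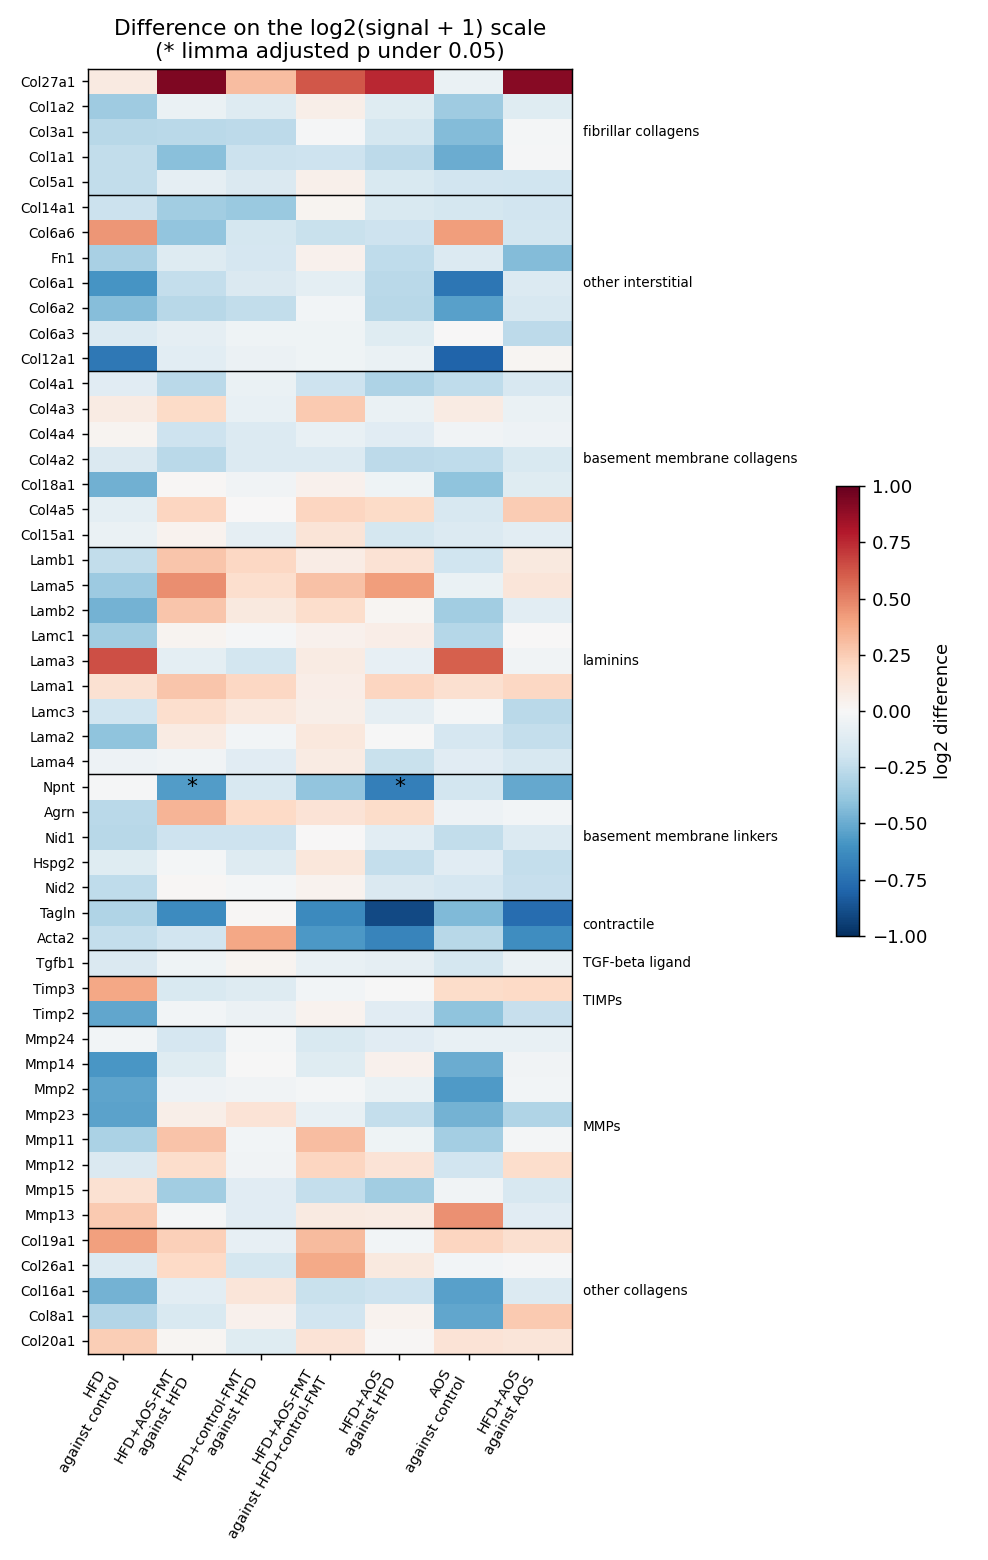
Differences on the log2(signal + 1) scale of 51 of the 52 tested matrix genes (rows, by role) in the 7 comparisons between groups (columns), from blue (lower in the first group) through white to red (higher). Stars mark a limma adjusted p under 0.05. The only stars are on Npnt, at -0.56 in HFD+AOS-FMT and -0.68 in HFD+AOS against HFD, and most cells of the HFD and AOS columns against control are blue.

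The differences of the type IV collagen chains were not all of 1 sign, and none was called. Col4a1 and Col4a2, a head-to-head pair on chromosome 8 whose RefSeq starts lie 21 bases apart, had differences of -0.27 each in HFD+AOS-FMT against HFD (limma adjusted p = 0.369 and 0.439), and of -0.31 and -0.27 in HFD+AOS (0.263 and 0.425). Col4a1 was at 42.3, 38.5 and 41.4 in HFD, 36.3, 33.0 and 29.3 in HFD+AOS and 32.2, 37.0 and 31.6 in HFD+AOS-FMT. Its HFD libraries lay above all libraries of both AOS arms. The ratio of Col4a2 to Col4a1 stayed between 0.637 and 0.769 in all 18 libraries.

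Col4a3 and Col4a4, the head-to-head pair on chromosome 1 that encodes glomerular chains, differed in sign in HFD+AOS-FMT against HFD, at 0.19 (limma adjusted p = 0.568) and -0.21 (0.569). Col4a3 was at 38.3, 42.5 and 40.2 in HFD+AOS-FMT and 35.4, 33.7 and 36.8 in HFD. The groups did not overlap for either gene, with Col4a4 at 28.6, 34.7 and 33.0 against 38.9, 37.0 and 35.6. No type IV chain was called in the 7 comparisons.

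In HFD against control most matrix genes had a negative difference, and most of all genes did too. The sign was negative for 41 of 52 matrix genes (median -0.242) and for 8795 of 12030 genes (median -0.105), which quantile normalization moved to -0.072 and 0.012. Without control replicate 3 the medians were -0.074 and -0.024. None of the 52 was called, and 0% of all tested genes were. At an unadjusted p under 0.05 in limma there were 14 of 52 (26.9%), against 17.4% of all tested genes. Without control replicate 3 there were 2 of 52, and the share of all tested genes in that fit is not given here.

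Col12a1, Col18a1, Col16a1 and Lama2 were among the matrix genes with the smallest p in HFD against control. Col12a1, a fibril-associated collagen, was at 0.85, 0.77 and 1.00 in HFD and 1.95, 1.05 and 3.80 in control (-0.72, SE 0.226, limma adjusted p = 0.234). Col18a1, the source of endostatin in vessel basement membranes, was at 21.5, 22.2 and 23.9 against 29.0, 25.2 and 43.8 (-0.48, SE 0.152, limma adjusted p = 0.234). In both genes the highest control library was replicate 3, and without it the differences shrank to -0.39 and -0.25. Col16a1 differed by -0.47 and Lama2, the laminin alpha2 chain, by -0.40, and by -0.26 and -0.31 without replicate 3. Leaving out control replicate 2 instead, which keeps the library that stands apart, called 4 of 52, Col12a1, Col18a1 and Mmp23 among them, with 1.80% of all tested genes.

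AOS against control gave a like picture, and it shares the control libraries. Sperm cell transcripts summed to 55.46 to 62.63 in every control library and 21.15 to 26.13 in every AOS library. Between these groups AOS and that split cannot be told apart. None of the matrix genes was called, and 0.0333% of all tested genes were. At an unadjusted p under 0.05 in limma there were 11 of 52 (21.2%), against 12.7% of all tested genes. Without control replicate 3 there were 9 of 52, again without a share of all tested genes given here. The smallest p-values were those of Col12a1 (-0.80), the type VI chain Col6a2 (-0.54), the collagenase Mmp13 (0.45), Col16a1 (-0.54) and the type VI chain Col6a1 (-0.72), with limma adjusted p-values from 0.313 to 0.346. Mmp13 was at 1.38, 0.91 and 0.96 in AOS and 0.55, 0.61 and 0.39 in control, without overlap but near the lowest signals tested. Without control replicate 3 these differences were -0.48, -0.40, 0.39, -0.33 and -0.35. Without control replicate 2 Col12a1 was called (limma adjusted p = 0.0446), with 0.249% of all tested genes.

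In HFD+control-FMT against HFD none of the 52 genes was called by limma and none had an unadjusted p under 0.05, against 0% and 4.50% of all tested genes. The smallest p-values belonged to Lama1 (0.21), Col14a1 (-0.37), Acta2 (0.39), Npnt (-0.16) and Col27a1 (0.31). In HFD+AOS-FMT against HFD+control-FMT none was called either (0% of all tested genes), and 5 of 52 had an unadjusted p under 0.05, against 7.02%. These 5 were Npnt, Col27a1, Tagln, Acta2 and Col26a1, a minor collagen at 1.78, 1.93 and 1.75 against 1.29, 1.28 and 0.95 (0.38, limma adjusted p = 0.643). Laminins had a positive sign for 10 of 10 (median 0.082, all genes 0.040), beside 61.9% of all tested genes, and for 8 of 10 after quantile normalization.

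The remaining counts at an unadjusted p under 0.05 are given beside the share of all tested genes. In HFD+AOS-FMT against HFD there were 9 of 52 matrix genes (17.3%), against 13.3% of all tested genes. In HFD+AOS against HFD there were 6 of 52 (11.5%), against 15.1%. In HFD+AOS against AOS none was called (0% of all tested genes), and 4 of 52, Npnt, Col27a1, Tagln and Acta2, had an unadjusted p under 0.05, against 11.1%. Without control replicate 3 Npnt was called there (limma adjusted p = 0.0316), with 1.31% of all tested genes. The diet effect with AOS minus that without AOS called none (0% of all tested genes), and 5 of 52 had an unadjusted p under 0.05, against 12.4%. Among these were Npnt, Col27a1, Col12a1 (0.73) and Col8a1 (0.56), and the estimate of Col12a1 was 0.41 without control replicate 3. Without that library 2 of 52 had an unadjusted p under 0.05 in limma.

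The TGF-beta ligand, the TIMPs and the MMPs tested were not called in any of the comparisons. Tgfb1, the main TGF-beta ligand of fibrosis, was at 6.88, 6.84 and 6.61 in HFD, 7.73, 6.14 and 5.22 in HFD+AOS and 5.27, 8.55 and 6.14 in HFD+AOS-FMT. Its difference in HFD against control was -0.15 (limma adjusted p = 0.646). Timp3 was at 656, 650 and 656 in HFD and 573, 671 and 324 in control (0.39, limma adjusted p = 0.287, and 0.08 without replicate 3). Timp2, which also takes part in activating Mmp2, was at 14.4, 10.6 and 16.7 in HFD and 18.1, 14.9 and 29.4 in control (-0.52, limma adjusted p = 0.249, and -0.25 without replicate 3). Mmp14, which activates Mmp2, was at 2.10, 1.60 and 2.14 in HFD and 2.38, 2.03 and 7.23 in control. Mmp24 was at 3.06, 4.14 and 3.65 in HFD and 2.87 to 3.19 in HFD+AOS-FMT, with overlapping groups. For Timp3, Timp2 and Mmp14 the value of control replicate 3 lay outside the range of the other 17 libraries.

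**Figure D4:**
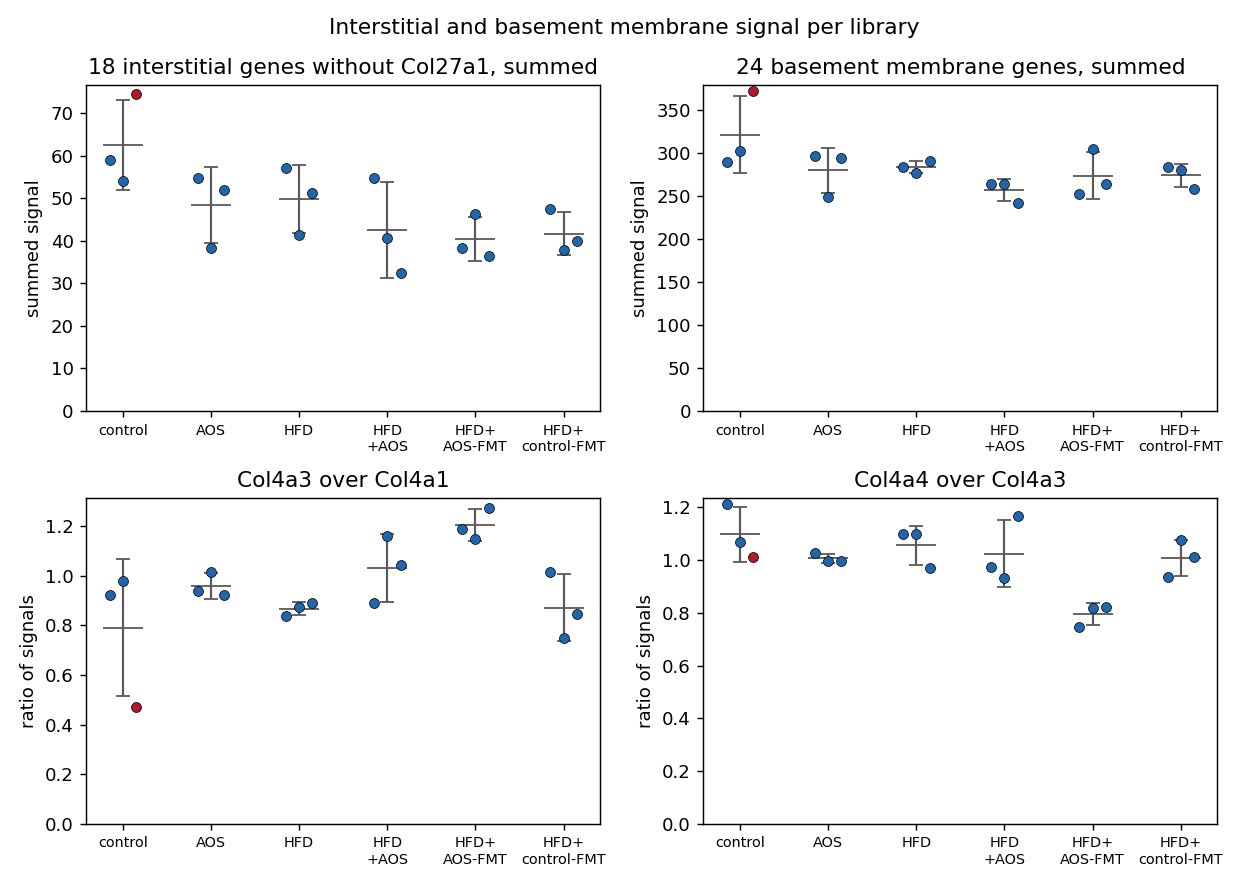
Summed signal of 18 interstitial genes without Col27a1, summed signal of 24 basement membrane genes, and the ratios of Col4a3 to Col4a1 and of Col4a4 to Col4a3, by group. Points are libraries (control replicate 3 in red), horizontal bars are means and whiskers 1 SD of 3. The HFD interstitial sum overlaps with those of the 3 groups set against it, while the Col4a4 to Col4a3 ratio is 0.746 to 0.821 in HFD+AOS-FMT.

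Other genes of matrix biology, in 5 lists, were read beside these: collagen assembly, matrix receptors, proteoglycans and matricellular proteins, TGF-beta signalling and other proteases. Of 102 genes listed, 80 were tested (14, 16, 22, 15 and 13), and 0 of 80 were called by limma in any comparison in either direction. Among all tested genes 0% to 1.02% were called, depending on the comparison, so 0 of 80 is near that share. In the F test the smallest p-values of each list belonged to Plod1 and Pcolce (limma adjusted p = 0.126 and 0.141), Itgav and Itgb6 (0.183 and 0.193), Ogn and Mfap4 (0.110 and 0.125), Smad7 and Tgfbr3 (0.143 and 0.401), and Ctsb and Adam10 (0.153 and 0.318). The collagen prolyl hydroxylase gene P4ha2 came closest between groups, at 5.86 ± 0.336 in HFD+AOS and 8.09 ± 0.131 in HFD (SD, n = 3), a difference of -0.41 (SE 0.096, limma adjusted p = 0.0628). The lysyl hydroxylase gene Plod1 was at 12.1 ± 0.326 against 14.5 ± 0.512 there (-0.25, limma adjusted p = 0.112). Itgb6, an epithelial integrin that activates TGF-beta, was at 15.7 ± 3.86 in HFD+AOS-FMT and 23.7 ± 2.56 in HFD (-0.58, limma adjusted p = 0.210). Mfap4, a microfibril protein, was at 0.693 ± 0.0815 in HFD and 2.45 ± 0.474 in control (-1.02, limma adjusted p = 0.137).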

How the data were processed

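Kidney RNA of 18 libraries was sequenced by the submitters. The submitters' processing notes name Bowtie 0.12.2 and mm10. How reads were counted and normalized is not given in the sources used here. What the authors deposited is normalized signal per gene symbol in 1 table, with no stated unit. It was treated as normalized for depth and length. Read numbers are unknown, so no counting interval is given, and column sums of the signal were 637302 to 721171. Of 19545 entries, 26 symbols turned into dates and 1 repeated symbol were left out.

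Genes with a signal of at least 1 in 3 libraries (12030) were tested with limma 3.58.1 (R 4.3.3) on log2(signal + 1), with trend and robust estimation, 6 groups, 12 residual degrees of freedom, 8 contrasts and an F test, each adjusted over genes by Benjamini-Hochberg, at a threshold of 0.05. The scripts were tested on simulated data. Tables were handled in Python 3.11.15. The alternatives tried are a pseudocount of 0.1, other filters, 2 other scalings, array weights, a replicate block, a term for sperm cell transcripts, fits of only the groups compared and each library left out.

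The members and lists were chosen with earlier results of these data known. Values are given for every gene called, the 5 smallest p-values per contrast, the 2 highest means per role, the paired type IV chains and the 2 smallest p-values per pathway list, the latter taken from the F test and, for P4ha2, Plod1, Itgb6 and Mfap4, from single contrasts chosen after their values were seen. Col1a1, Col3a1 and Mmp14 in single contrasts, and Itga8, Arntl and the genes called without control replicate 3, were also chosen after their values were seen. 1 gene that the rule selects is not reported here.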

Additional observations from a re-analysis of the deposited data

How the results depend on the processing

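The log2 differences of the named genes kept their direction and side of the threshold in 649 of 679 alternative fits, lost the call in 13, gained one in 16 and reversed in 1. The reversal was that of Acta2 in HFD+control-FMT against HFD with the sperm cell term, where HFD is replicate 3 alone (-0.014, against 0.39). Only a called difference can lose its call, and those called in the main fit were of Npnt. Npnt stayed called in 14 of 17 fits in HFD+AOS and in 7 of 17 in HFD+AOS-FMT, each against HFD. The counts of called matrix genes stayed in 130 of 166. In HFD+AOS-FMT against HFD the count was 0 with no filter, without trend or robust estimation, with the replicate block and with the sperm cell term, 4 with array weights, and 0 to 5 with 1 library left out. Npnt kept a negative difference in every fit of that comparison (-0.655 to -0.482), with limma adjusted p-values from 0.00298 to 0.355. In HFD+AOS against HFD it was 0 with the sperm cell term, 3 with only the groups compared, 4 with array weights and 0 to 3 with 1 library left out. The call of Npnt there was lost without HFD replicate 3 (limma adjusted p = 0.0525) and without HFD+AOS replicate 1 (0.0541). In HFD+AOS against AOS the count was 2 with array weights and 0 to 1 with 1 library left out. It was 0 to 4 in HFD against control and 0 to 1 in AOS against control with 1 library left out. In the F test it was 5 with array weights, 1 with the replicate block (Col27a1 was lost), 0 with the sperm cell term (both were) and 1 to 4 with 1 library left out. With the sperm cell term HFD is replicate 3 alone against HFD+AOS and the transplant groups, so those fits rest on 1 HFD library there. The cause of these shifts was not tested.

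Correlations gave no sign that replicate numbers pair the libraries, but with 3 libraries a group a pairing could be missed. Same-numbered libraries correlated at -0.159 to 0.260 in their deviations from group means, against -0.286 to 0.265 for others, and the replicate block gave 0 called matrix genes for HFD+AOS-FMT against HFD and 1 each for HFD+AOS against HFD and the F test. Over all genes the calls ranged from 0 to 641 for HFD+AOS-FMT against HFD and from 7 to 943 for HFD+AOS against HFD. Read depth is unknown, so signals near 1 carry a counting error that cannot be given here.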

Other observations

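The values below were picked after the data had been seen and were not tested. The ratio of Col4a4 to Col4a3, the genes of 2 chains that assemble together in the glomerular basement membrane, was 0.746, 0.817 and 0.821 in HFD+AOS-FMT. It was 0.932 to 1.21 in the other 15 libraries, control replicate 3 included (1.01). The ratio of Col4a3 to Col4a1 was 1.21 ± 0.0642 in HFD+AOS-FMT and 0.867 ± 0.0264 in HFD (SD, n = 3), and 0.472 in control replicate 3. The ratio in HFD+AOS reached 1.16 and in HFD+control-FMT 1.02.

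Control replicate 3 also had the lowest signal of the 18 libraries for 7 of the 52 matrix genes, which were Timp3, Col4a3, Col4a4, Col6a6, Lama3, Mmp13 and Col19a1 (0.18, against 1.34 to 2.48 elsewhere). HFD+AOS replicate 3 had the lowest signal for 18 of the 52 (34.6%), against 6.38% of all tested genes.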
